A study of Mus musculus with 6 samples.

Results

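The islands described here were the CpG islands (CGIs) with the strongest enrichment of methylated DNA in control mouse liver. An island was a run of at least 3 array probes with neighbouring starts no more than 500 bp apart on chromosomes 1-19, and it was included when its level averaged 2 or more over the 3 Mdr2-/+ arrays. The level was the log2 ratio of immunoprecipitated methylated DNA (MeDIP) to input DNA, averaged over the island's probes after each array had been centred on its median. This rule gave 1448 islands, 10.8% of the 13431 islands on these chromosomes and part of 13822 islands on the array. The islands were thus chosen by their Mdr2-/+ levels, which are given as a description. The ratio ranks enrichment and is not a percentage of methylated cytosines.

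CpG islands are short CpG-dense stretches, many of them at gene promoters, and most are unmethylated in normal tissues. The methylated minority often lies within genes or between them, and also at promoters of germline, imprinted or tissue-restricted genes. The pattern is copied to daughter strands at replication by maintenance DNA methyltransferase, and its loss in chronically injured tissue and cancer is a long-standing subject of study.

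The study compared liver from 3 Mdr2-KO mice with liver from 3 Mdr2-/+ mice, all 12 months old and labelled FVB, with 1 array per mouse. The Mdr2-KO line, FVB.129P2-Abcb4tm1Bor, carries a targeted Abcb4 allele, lacks the canalicular phospholipid transporter of hepatocytes throughout the body and develops chronic liver inflammation, followed by tumours. The controls were heterozygotes from crosses of that line with FVB/NJ, so every animal carried at least 1 mutant allele, and only males were used. Whole liver was taken, so fewer cells carrying a methylated island and fewer methylated copies per cell cannot be told apart. The scanner files name no gene, so islands are named by position on mouse build mm8.

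The arrays themselves differed in a way that bears on these islands. The median level over the 1448 islands was 4.36, 4.33 and 4.24 on the Mdr2-KO arrays, against 4.75, 3.76 and 3.75 on the Mdr2-/+ arrays. Control replicate 1 was thus above and controls 2 and 3 below all 3 Mdr2-KO arrays, and at 66.8% of the islands every Mdr2-KO value lay between control 1 and the higher of the other 2 controls. The 11983 other islands had array medians of -0.25 to -0.21 in Mdr2-KO liver and -0.22 to -0.19 in Mdr2-/+ liver. Those medians cannot show such a split, since each array was centred on its median and these islands held most of the probes. Their 95th percentiles did differ among the controls, at 1.23, 0.83 and 0.88 on controls 1, 2 and 3. All of these lay below the lowest Mdr2-KO value of 1.29. The SD of the probe ratios was 1.66 to 1.75 on the Mdr2-KO arrays, against 1.83, 1.56 and 1.52 on the Mdr2-/+ arrays in order of replicate. Mdr2-KO 1 and Mdr2-/+ 1 shared a slide, whereas the other 2 arrays of each genotype had a slide to themselves, so that slide and genotype cannot be told apart for those 4 arrays. The part of array spread in the differences below was not tested apart from the rescaled, within-slide and left-out values given beside them.

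**Figure D1:**
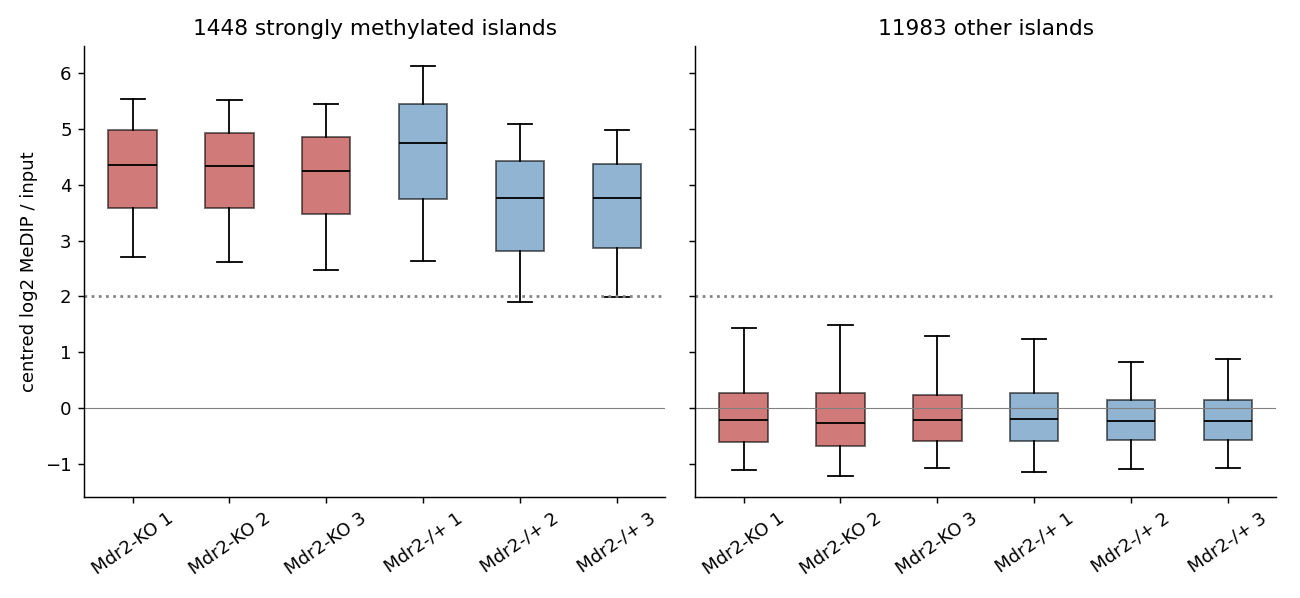
Centred log2 MeDIP/input of the strongly methylated islands (left panel) and of the other islands (right panel) on each array, with Mdr2-KO in red and Mdr2-/+ in blue. Boxes span the quartiles with the median as a line, whiskers reach the 5th and 95th percentiles and the dotted line marks 2. The strongly methylated islands have medians of 4.24 to 4.36 on the Mdr2-KO arrays, against 4.75, 3.76 and 3.75 on the Mdr2-/+ arrays.

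The median input signal, as log2 over the array median, was -0.30 in Mdr2-KO and -0.26 in Mdr2-/+ liver at the strongly methylated islands, close to the values of -0.23 and -0.21 at the other islands. The median MeDIP signal on the same scale was 4.01 in Mdr2-KO and 3.83 in Mdr2-/+ liver, against -0.39 and -0.32 at the other islands. At 11 islands in Mdr2-KO and 10 in Mdr2-/+ liver it was below the array median, so their ratio came with a low input signal. MeDIP signal was well above background at 98.3% to 98.8% of their 7361 probes on the Mdr2-KO arrays and at 97.9% to 98.4% on the Mdr2-/+ arrays. At the other islands these shares were 79.9% to 85.3% and 76.3% to 82.1%. Saturated MeDIP spots numbered 5 to 7 per Mdr2-KO array and 2 to 5 per Mdr2-/+ array, so the scanner ceiling touched few of these probes.

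The strongly methylated islands were short. They held a median of 4 probes (quartiles 3 and 6, at most 33) and spanned a median of 445 bp (quartiles 358 and 627, at most 4126), against 5 probes and 672 bp at the other islands. The share of islands that were strongly methylated was 17.9% among those of 3 probes, 16.5% among those of 4 and 10.4% among those of 5. It was 6.44% for 6 to 9 probes, 5.24% for 10 to 19 probes and 7.61% of the 92 islands with 20 or more. Small runs also average fewer probes and reach extreme means more easily, and the part of this in the trend was not tested.

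Within an island the probes mostly had like levels. The SD among the probes of an island had a median of 0.55 in the Mdr2-/+ means, against 0.86 at the other islands. The same Mdr2-/+ values chose the islands, so this contrast is a description. Every probe reached 2 in 1240 islands (85.6%) in the Mdr2-KO means and in 1144 islands (79.0%) in the Mdr2-/+ means. Only 18 islands held a probe below 0 in the Mdr2-/+ mean, and these were long, with a median of 13.5 probes. In the 394 islands of 6 or more probes the centre lay above the edges. The median edge level was 3.96 in Mdr2-KO and 3.67 in Mdr2-/+ liver, and the median centre level was 4.66 in Mdr2-KO and 4.36 in Mdr2-/+ liver. The centre was the higher of the pair in 312 of these islands in Mdr2-/+ liver.

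The Mdr2-/+ level ranged from 2.00 to 6.06 with a median of 4.09 and quartiles of 3.15 and 4.74. It lay between 2 and 3 at 316 islands, between 3 and 4 at 369, between 4 and 5 at 544 and at 5 or more at 219. The threshold did not fall in a gap, since 100 islands lay between 2 and 2.25 and 79 islands just below it between 1.75 and 2. The nearest islands inside were chr7:28175344-28176581 at 2.001 and chr5:110347200-110348624 at 2.002. Those just outside were chr12:111873671-111874121 at 1.995 and chr17:17548707-17548958 at 1.991. A further 34 islands reached 2 outside chromosomes 1-19, 32 of them on X, and were not included.

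The highest level was at chr11:77287634-77287929, an island of 3 probes. It measured 6.21, 6.10 and 5.97 in Mdr2-KO liver, against 6.81, 5.83 and 5.55 in Mdr2-/+ liver, and the genotypes overlapped. The next was chr6:47834271-47835039 with 6 probes, at 5.93, 6.03 and 5.80 in Mdr2-KO liver, against 6.72, 5.65 and 5.60 in Mdr2-/+ liver. At both islands control 1 was highest and controls 2 and 3 were lowest. The other 8 of the 10 highest were chr13:56897357-56897586, chr5:110618237-110618805, chr8:4206417-4206764, chr8:107031724-107032055, chr17:23303733-23304460, chr5:140223793-140224866, chr10:79138361-79139344 and chr5:140776540-140777149. Over all 10 the Mdr2-KO mean was 5.69 to 6.09 and the Mdr2-/+ mean 5.78 to 6.06, with differences of -0.13 to 0.13 and limma adjusted p of 0.829 or more.

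The longest strongly methylated island was chr5:111656748-111660873, with 33 probes over 4126 bp. It measured 3.04, 3.00 and 2.91 in Mdr2-KO liver, against 2.62, 1.94 and 2.02 in Mdr2-/+ liver. The Mdr2-KO values all lay above the Mdr2-/+ values, yet the difference of 0.79 (SE 0.18) had an adjusted p of 0.0534 in limma and was not called. Not all of this island was enriched. Of its 33 probes, 22 reached 2 in the Mdr2-KO mean and 18 in the Mdr2-/+ mean, where the lowest probe was at -3.37. The 26 probes of chr15:76005782-76009269 averaged 4.96, 4.98 and 4.90 in Mdr2-KO liver, against 5.63, 4.53 and 4.40 in Mdr2-/+ liver. This island was thus enriched over 3488 bp in both genotypes, with overlapping values. The other 3 long islands, chr1:64669020-64672357, chr18:35778345-35781350 and chr8:28442587-28445739, had Mdr2-KO means of 2.33 to 3.09 and Mdr2-/+ means of 2.02 to 2.87. They were mixed as well. In the Mdr2-KO mean 16 of 25, 16 of 24 and 12 of 23 probes reached 2, against 16, 15 and 10 in the Mdr2-/+ mean.

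Strongly methylated islands were spread unevenly over the chromosomes. The share was highest on chromosome 15, at 16.7% of 604 islands (95% exact binomial interval 13.8% to 19.9%), with chromosomes 8, 7 and 10 next, at 15.1% of 795, 150 of 999 and 14.0% of 691. The share was lowest on chromosome 13, at 6.41% of 515 islands (interval 4.45% to 8.88%), with chromosomes 16 and 1 next, at 29 of 414 islands and 7.02% of 755. These intervals treat islands as independent draws, which neighbouring islands are not. Of the strongly methylated islands 13.1% lay within 10 Mb of the last island of their chromosome, against 10.9% of the others.

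**Figure D2:**
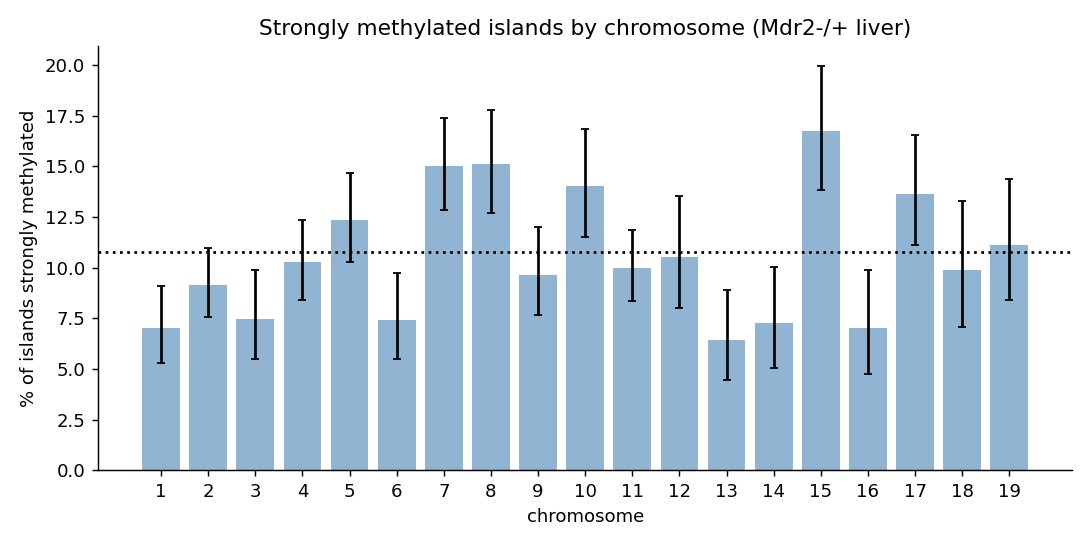
Percentage of the islands on each chromosome that were strongly methylated in Mdr2-/+ liver (bars) with 95% exact binomial intervals (lines), beside the share of 10.8% over chromosomes 1-19 (dotted line). Chromosomes 7, 8, 10, 15 and 17 have intervals wholly above the dotted line, and chromosomes 1, 3, 6, 13, 14 and 16 have intervals wholly below it.

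The islands lay in island-rich neighbourhoods. Their nearest island was a median of 14.4 kb away, against 27.4 kb for the others, and it was within 10 kb for 42.6% of them, against 28.1%. Where it was that near, it was itself strongly methylated for 36.3% of the 617 islands, against 11.7% of the 3369 other islands. The likeness faded with distance. Within 1 kb, 42 of 61 nearest islands (68.9%) were strongly methylated, against 18 of 828 (2.17%) for the others. At 1 to 3 kb the share was 46.4%, against 11.1%, at 3 to 10 kb it was 26.8%, against 16.6%, and at 10 to 30 kb it was 13.7%, against 13.2%. A run ended where probe starts lay more than 500 bp apart, so close neighbours can be parts of 1 CpG island. Pairs nearest to each other were counted from both sides.

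Nearness did not mean a shared state at every site. Of the 617 islands with a neighbour within 10 kb, 215 (34.8%) had a neighbour whose Mdr2-/+ level was below 0, and 178 had 1 between 0 and 2. With members up to 100 kb apart joined into places, the 1448 islands formed 1008 places, of which 774 held a single island and 24 held 5 or more.

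The largest place was chr10:80424923-80991175, with 17 strongly methylated islands interspersed with 27 others over 566 kb. Its strongly methylated islands had Mdr2-KO means of 2.87 to 5.52 and Mdr2-/+ means of 2.71 to 5.36. Within it, chr10:80547194-80548214 stood at 5.40 in Mdr2-KO and 5.15 in Mdr2-/+ liver, whereas chr10:80538387-80540318, less than 10 kb away, stood at -0.63 in Mdr2-KO and -0.67 in Mdr2-/+ liver. The second, chr10:79015316-79417055, held 12 strongly methylated and 20 other islands. Places of 11 lay at chr15:75801997-76060300 and chr8:74304803-74638801. A run without interspersed islands, named after its values were seen, was chr8:46449325-46550419, where all 8 islands within 101 kb were strongly methylated, with Mdr2-KO means of 3.80 to 5.67 and Mdr2-/+ means of 3.72 to 5.59. Input was low along this run, at -3.01 to -0.13 in Mdr2-KO and -2.90 to -0.11 in Mdr2-/+ liver. The 2 islands called lower in Mdr2-KO liver lay outside these 5 places.

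Strong methylation was kept in Mdr2-KO liver at nearly every island. On the Mdr2-KO arrays, which the rule had not used, 1441 of the 1448 islands (99.5%) had a mean of 2 or more, and 1430 (98.8%) reached 2 on every Mdr2-KO array. For the Mdr2-/+ arrays, which did choose the islands, all 3 reached 2 at 1322 islands (91.3%). By array, 99.6%, 99.2% and 99.2% of the islands reached 2 in Mdr2-KO liver, against 100%, 92.8% and 94.8% in Mdr2-/+ liver. The Mdr2-KO level ranged from 0.46 to 6.09 with a median of 4.31. A level of 2 was reached by fewer islands in both genotypes on the scales of normexp background correction and of loess within arrays. There 70.9% and 74.0% of the 1448 islands had a Mdr2-KO mean of 2 or more. Of the 711 and 1078 islands with a Mdr2-/+ mean of 2 or more on those scales, 100% and 95.4% had a Mdr2-KO mean of 2 or more.

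The levels of the islands were also correlated between the genotypes, though less closely than within them. Across the 1448 islands Pearson's r was 0.962 to 0.979 between Mdr2-KO arrays, 0.976 to 0.984 between Mdr2-/+ arrays and 0.888 to 0.934 between the genotypes. These are descriptions over islands that share arrays and probes. Looked at from the other side, 1669 islands on chromosomes 1-19 had a Mdr2-KO mean of 2 or more, and the 1441 made up 86.3% of them. The 228 others had a median Mdr2-/+ level of 1.59, with 189 at 1 or more and 2 below 0.

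**Figure D3:**
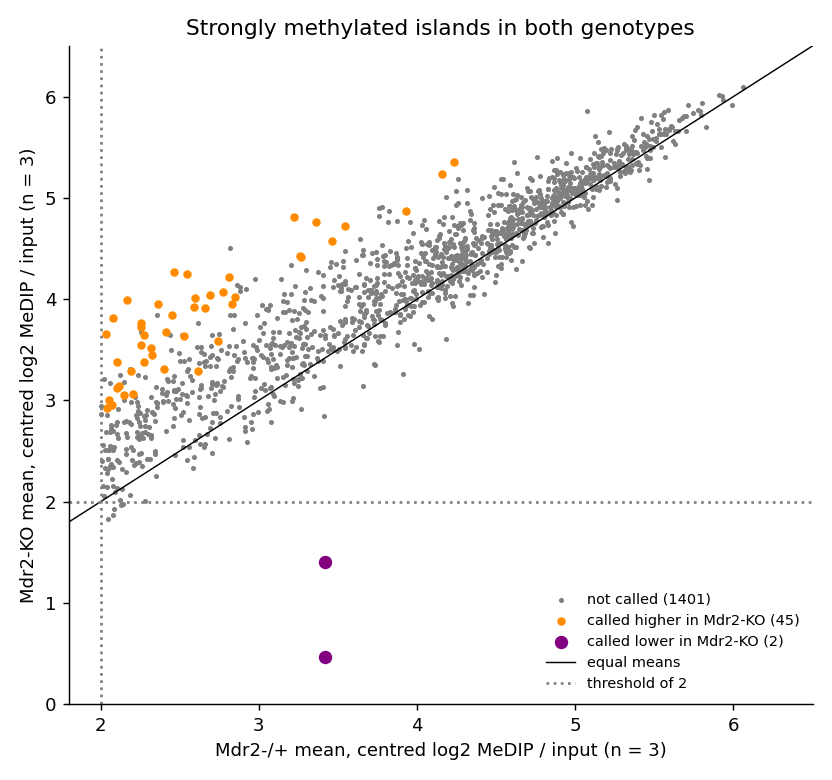
Mdr2-KO mean (vertical axis) against Mdr2-/+ mean (horizontal axis), each the mean of 3 arrays as centred log2 MeDIP/input, for the 1448 strongly methylated islands. Purple points are the 2 islands called lower in Mdr2-KO liver, at Mdr2-KO means of 0.46 and 1.41 and Mdr2-/+ means of 3.42, orange points the 45 called higher, and 1441 points lie on or above the dotted horizontal line at 2.

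Few islands were called different between the genotypes. Mdr2-KO minus Mdr2-/+ was tested with limma over all 13822 islands, and an island was called at a Benjamini-Hochberg adjusted p under 0.05. Among the strongly methylated islands 2 (0.138%) were called lower, beside 0.21% of all islands, and 45 (3.11%) were called higher, beside 4.28% of all islands. Choosing islands by a high Mdr2-/+ mean favours falls and works against rises. Every Mdr2-KO value lay below every Mdr2-/+ value at 6 islands (0.414%, beside 10.8% of all islands) and above at 149 (10.3%, beside 15.9%). The remaining 1293 islands (89.3%) had overlapping genotypes, and 1137 (78.5%) had means within 0.5 of each other. The wide spread among controls entered these counts, since the SD over replicates had a median of 0.12 in Mdr2-KO and 0.57 in Mdr2-/+ liver at these islands, against 0.13 and 0.15 at the others.

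A loss was defined as a fall of 1 or more with no overlap of the genotypes, and 2 strongly methylated islands met it, 0.138% of them, beside 0.0289% (4 islands) of all islands. They were the same 2 islands that limma called lower. Both had 4 probes and Mdr2-/+ means of 3.42, below the median of the strongly methylated islands, and each was the only island of the 53 strongly methylated on chromosome 12 or the 29 on chromosome 16 with a Mdr2-KO mean under 2.

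The larger loss was at chr16:45763546-45764072, which spans 527 bp. Its level was 0.79, 0.26 and 0.33 in Mdr2-KO liver, against 4.06, 2.96 and 3.23 in Mdr2-/+ liver. The groups were separated by a gap of 2.17 between the highest Mdr2-KO and the lowest Mdr2-/+ array. The means were 0.46 ± 0.29 in Mdr2-KO and 3.42 ± 0.57 in Mdr2-/+ liver (SD, n = 3 each), a difference of -2.96 (SE 0.28, limma adjusted p = 0.00392). This was the lowest Mdr2-KO level of the 1448 islands. All 4 probes were lower, by -3.54, -2.69, -3.12 and -2.47 in order along the chromosome. The input signal differed by 0.05 and the MeDIP signal by -2.96, and on the shared slide the difference was -3.27. No other island lay within 100 kb. The nearest, chr16:45661983-45662361 at 101 kb and chr16:45929687-45930042 at 166 kb, had Mdr2-KO means of 0.35 and -0.20 and Mdr2-/+ means of 0.45 and -0.13. The nearest strongly methylated island, chr16:45327888-45328283 at 435 kb, averaged 3.24 in Mdr2-KO and 2.57 in Mdr2-/+ liver and was not called.

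The second loss was at chr12:108800565-108800956, which spans 392 bp. Its level was 1.84, 1.08 and 1.30 in Mdr2-KO liver, against 4.03, 2.95 and 3.27 in Mdr2-/+ liver. The gap between the groups was 1.11. The means were 1.41 ± 0.39 in Mdr2-KO and 3.42 ± 0.56 in Mdr2-/+ liver (SD, n = 3 each), a difference of -2.01 (SE 0.29, limma adjusted p = 0.0147). The 4 probes differed by -1.74, -2.12, -1.98 and -2.21. Input differed by 0.04 and MeDIP by -2.03, and on the shared slide the difference was -2.19. The island therefore kept part of its enrichment, where the chromosome 16 island was near the array median.

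Its surroundings held other islands in different states. A strongly methylated island 33.8 kb away, chr12:108766049-108766809 with 6 probes, measured 3.48, 3.17 and 3.14 in Mdr2-KO liver, against 4.36, 3.70 and 3.66 in Mdr2-/+ liver. The genotypes did not overlap and all 6 probes were lower, but the difference of -0.65 (SE 0.20) had a limma adjusted p of 0.121 and was not called. After quantile normalization its difference was -1.07 without overlap (limma adjusted p = 0.00197), so there it was called and met the definition of a loss. Between the 2 lay chr12:108781472-108782545, at -0.066, 0.478 and 0.318 in Mdr2-KO liver, against -0.665, -0.995 and -0.478 in Mdr2-/+ liver. That island, which was not strongly methylated, was called higher, by 0.96 (SE 0.19, limma adjusted p = 0.0313). On the other side, 110 kb away, chr12:108911002-108911458 was kept at 4.47 in Mdr2-KO and 4.59 in Mdr2-/+ liver.

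**Figure D4:**
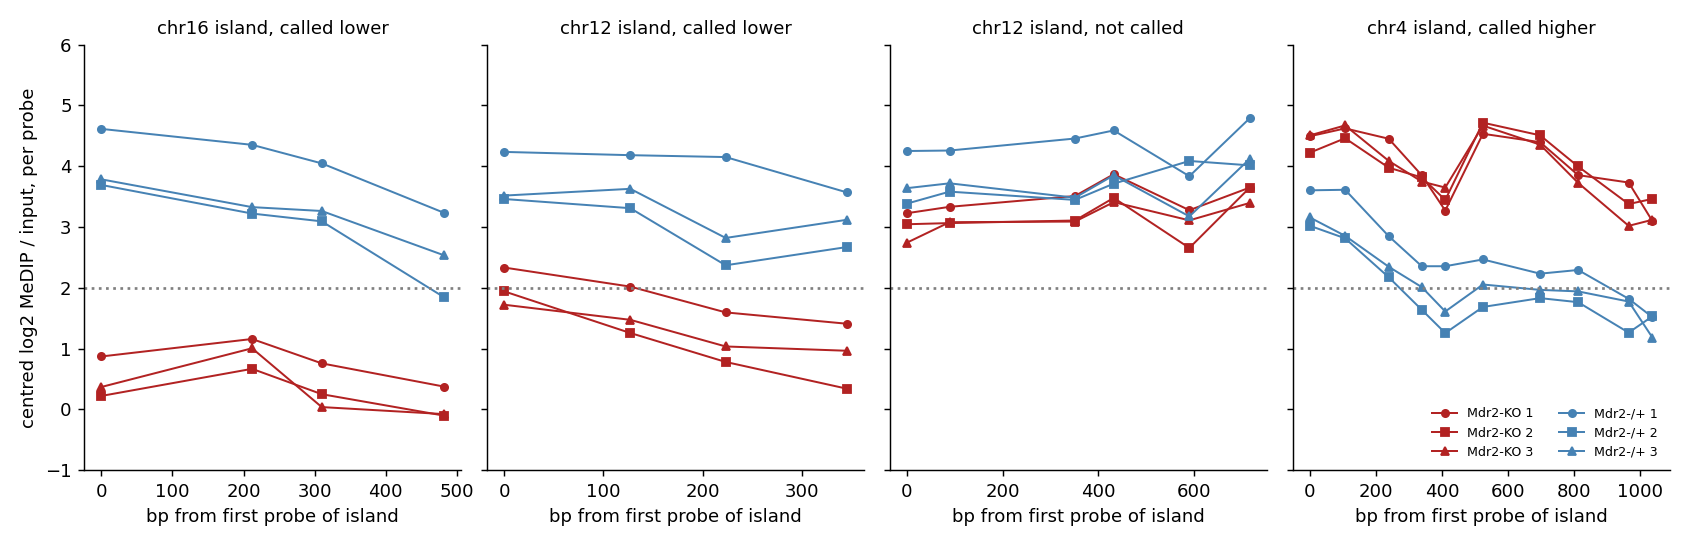
Centred log2 MeDIP/input of each probe against its distance in bp from the first probe of the island, on the 3 Mdr2-KO arrays (red) and the 3 Mdr2-/+ arrays (blue), with a dotted line at 2. All 4 probes fall at the chromosome 16 island, with Mdr2-KO means of 0.07 to 0.94 and Mdr2-/+ means of 2.54 to 4.03, and at the chromosome 12 island. The third panel is the neighbouring chromosome 12 island that was not called, and the fourth the chromosome 4 island with the largest rise, where all 10 probes are higher.

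Both islands also met the rule for strong methylation with any 1 control array left out, at 3.10 to 3.64 on chromosome 16 and 3.11 to 3.65 on chromosome 12. The difference stayed negative in each of 21 alternative settings per island, from -3.27 to -1.51 on chromosome 16 and from -2.31 to -0.90 on chromosome 12. Among these settings, slide as a fixed block rested on Mdr2-KO 1 and Mdr2-/+ 1 alone. The chromosome 16 island kept its call in 19 of 21 settings. The chromosome 12 island kept it in 16 and lost it without Mdr2-KO replicate 1 (adjusted p = 0.0549 in limma), without Mdr2-KO replicate 2 (0.0682) and without Mdr2-/+ replicate 3 (0.0616). Normexp background correction and the methods' t-test after adjustment ended the call at both islands.

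Past these 2, falls were small. The other 4 islands whose genotypes did not overlap in that direction were the chromosome 12 neighbour and chr4:150329560-150329980, chr15:102565402-102565704 and chr13:3477367-3477820, which differed by -0.52, -0.42 and -0.29 and were not called. At the chromosome 4 and chromosome 15 islands 1 probe gave most of the difference, -1.44 and -1.19, and the remaining probes differed by -0.35 to -0.04. Input was faint at both of these probes. MeDIP signal was not well above background on any array at the first and on Mdr2-KO 2 at the second, so these values are not exact. The 5 other islands with a Mdr2-KO mean under 2 sat at the threshold in both genotypes. They were chr10:67436683-67437186, chr11:102124999-102125608, chr13:73730294-73730628, chr2:157148590-157149318 and chr5:24417853-24419074, with Mdr2-KO means of 1.83 to 1.98, Mdr2-/+ means of 2.05 to 2.14, and limma adjusted p of 0.543 or more. At the chromosome 10 and chromosome 13 islands of these the input signal was low, at -3.20 and -2.49 in Mdr2-KO and -3.08 and -2.54 in Mdr2-/+ liver. No strongly methylated island had a Mdr2-KO mean of 0 or less.

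An island just under the threshold, chr13:24287825-24288977 with 9 probes, was named after its values were seen. It measured 0.62, 0.81 and 0.66 in Mdr2-KO liver, against 2.45, 1.61 and 1.48 in Mdr2-/+ liver. The groups did not overlap, and the difference of -1.15 was called (limma adjusted p = 0.0387). With probe starts no more than 250 bp apart, 6 of its probes formed an island of their own that entered the set at a difference of -1.51 and made 3 losses.

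More islands were called higher than lower in this fit, as over all islands, where 591 were called higher and 29 lower. With slide as a fixed block the comparison rested on Mdr2-KO 1 and Mdr2-/+ 1 alone. The median difference over the 1448 islands was then -0.41, and counts of calls are not given. After quantile normalization 106 were called higher and 87 lower (208 and 289 unadjusted). The 45 islands called higher rose by 0.68 to 1.83 (median 1.18), with Mdr2-KO means of 2.92 to 5.35 and Mdr2-/+ means of 2.03 to 4.24, and 36 of them had a Mdr2-/+ mean under 3. Every probe was higher in Mdr2-KO liver at 44 of the 45, and the medians of the MeDIP and input differences were 1.09 and -0.04. The genotypes did not overlap at any of the 45, which fixes the direction on the shared slide, where the median difference was 0.72. A rise of 1 or more without overlap was seen at 60 islands (4.14%), beside 2.34% of all islands.

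The largest rise was at chr4:122606908-122607992, an island of 10 probes. It measured 4.030, 3.998 and 3.955 in Mdr2-KO liver, against 2.511, 1.898 and 2.090 in Mdr2-/+ liver. The groups were well apart, and the difference was 1.83 (SE 0.16, limma adjusted p = 0.00392), with 1.52 on the shared slide. Its probes rose by 1.15 to 2.57. The next was chr19:43932960-43933233 with 3 probes, at 4.19, 4.23 and 4.38 in Mdr2-KO liver, against 3.30, 1.90 and 2.18 in Mdr2-/+ liver, a difference of 1.80 (SE 0.32, limma adjusted p = 0.0245). At this island control 1 stood more than 1 above the other controls. The 7 probes of chr7:11943471-11944565 averaged 3.90, 4.06 and 3.49 in Mdr2-KO liver, against 2.59, 1.67 and 1.98 in Mdr2-/+ liver, a difference of 1.74.

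The other 7 of the 10 largest rises were chr9:44249474-44249898, chr18:11239670-11239962, chr19:47367223-47367652, chr8:108148147-108149108, chr15:82034314-82035052, chr15:85860286-85861417 and chr14:17119969-17120620. They rose by 1.42 to 1.70, with limma adjusted p from 0.0140 to 0.0335. None of the 10 kept its call under normexp or by the methods' t-test after adjustment. On the shared slide, with 1 mouse of each genotype, the 10 differed by 0.58 to 1.52.

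Over all 1448 islands the difference had a median of 0.19 (quartiles 0.04 and 0.45) and was above 0 at 1173 (81.0%). This direction depended on the control arrays and on scaling. On the shared slide the median was -0.41, without control 1 it was 0.53, and with each array divided by its SD it was 0.02, with 52.3% above 0. That SD covers all probes of an array, those of these islands included, so the division itself draws their array levels together. The value of 0.02 is thus no separate check of direction. Where the islands were chosen without control 1, they differed from it by a median of -0.49, and where they were chosen without control 2 or control 3, they differed from the left-out array by 0.52 and 0.55. A general rise or fall of strongly methylated islands was therefore not detectable with these arrays.

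The count of rises changed when single arrays of either genotype were left out, which also left the test with fewer arrays. Without control 1, limma called 1016 of the islands higher (70.2%), beside 19.1% of all islands, and without control 2 or control 3 it called 5 and 2. Without Mdr2-KO 1, 2 or 3 it called 2, 3 and 25. At an unadjusted p under 0.05 limma had 261 with all arrays and 1227, 137 and 136 without controls 1, 2 and 3. Without Mdr2-KO 1, 2 and 3 these unadjusted counts were 162, 143 and 225. With each array divided by its SD, 201 islands (13.9%) were called higher, beside 9.19% of all islands, and 14 (0.967%) lower, beside 1.06%. Of the 45 rises, 44 were also called on that scale and 40 on it and after quantile normalization as well, and the 2 losses were called on both.

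The difference is given by level as a description, since the Mdr2-/+ mean set the classes and was also subtracted in the difference. At Mdr2-/+ levels of 2 to 3 the median difference was 0.52, with 36 of 316 islands called higher. It was 0.27 at 3 to 4, where 7 of 369 were called higher and the 2 losses lay, 0.13 at 4 to 5, where 2 of 544 were called higher, and 0.08 over the 219 islands at 5 or more. On the shared slide the medians were 0.05, -0.31, -0.49 and -0.59 for the same classes. After division by SD they were 0.42, 0.12, -0.05 and -0.14. The sign within the upper 3 classes changed with the comparison.

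**Figure D5:**
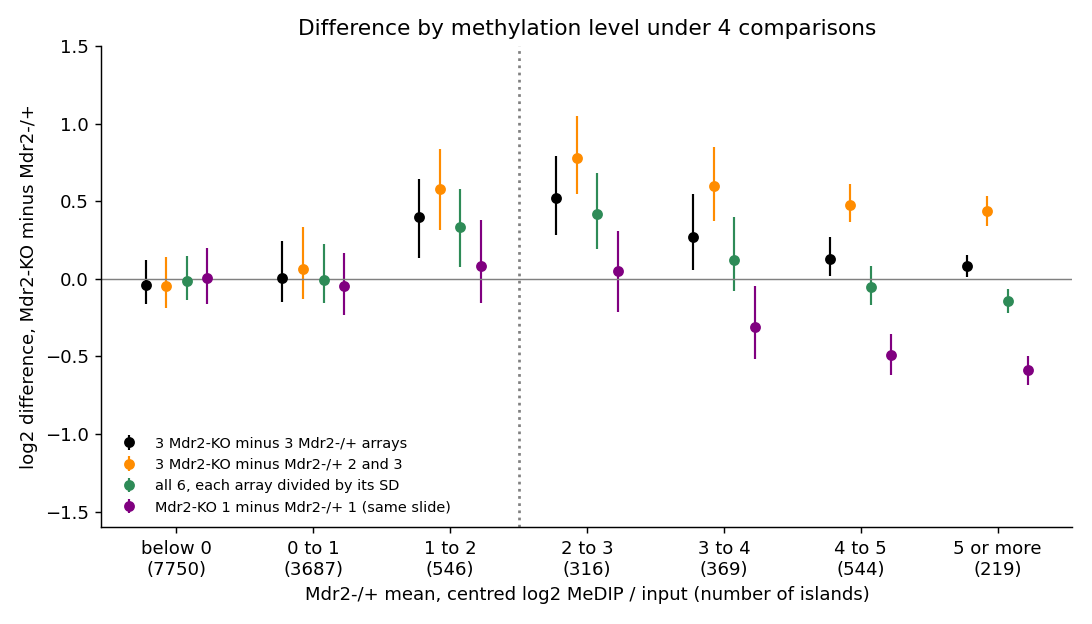
Median log2 difference, Mdr2-KO minus Mdr2-/+ (vertical axis, lines span the quartiles over islands), by Mdr2-/+ level (horizontal axis, number of islands in brackets), for 4 comparisons. Classes right of the dotted line are the strongly methylated islands. At 2 to 3 the medians run from 0.05 on the shared slide to 0.78 without control 1, and at 5 or more from -0.59 to 0.44.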

How the data were processed

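Each of 6 arrays (1 mouse each, 3 Mdr2-KO and 3 Mdr2-/+) held MeDIP DNA in Cy5 and input DNA in Cy3, per the labels. The deposited scanner files hold Agilent Feature Extraction processed signals, an intensity per spot that is already background-subtracted and dye-normalized by the authors' scanner software, with their log10 ratio per spot, as deposited, in a column not used here (version 8.5.1.1 in the submitters' processing notes). The authors' deposited table of scores per probe was used only as an alternative. Its Mdr2-/+ columns carry replicate numbers that did not match the scanner files, so they were used without numbers.

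From the processed signals log2(Cy5/Cy3) was computed, centred on each array's median, and averaged over runs of probes. Of 88737 probes, 379 without a position and 91 with an outlier flag on any array were left out. This gave 13822 islands from 15529 runs. Positions are those in the files, on mm8 per the study's methods. No genome of that build was used, so gene names and sequences are not given. Mdr2-KO minus Mdr2-/+ was fitted with limma 3.58.1 (lmFit, eBayes, two-sided, R 4.3.3) over all islands, Benjamini-Hochberg adjusted. The fit was tested on simulated shifts in independent noise per island. That noise held no array-wide scale difference or slide effect, so the simulation does not bear on how these enter the calls. p-values measure the spread among the arrays of 3 mice per genotype, and the number of mice limits the precision. Each mouse had its own array, so spread among mice cannot be told apart from differences in array scale or slide.

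Named islands were those that lost methylation, the 10 highest in Mdr2-/+, the 10 largest called rises without overlap, the 5 with most probes, those at the threshold and the largest places. The islands and these lists were chosen with earlier results of these data known. Alternatives covered background correction, normalization, scaling, probe and run rules, slide and replicate blocks, array weights, the methods' t-test, the authors' table and leaving out each array.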

Additional observations from a re-analysis of the deposited data

How the results depend on the processing

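The number of strongly methylated islands, the share with a Mdr2-KO mean of 2 or more and the count of losses were close to the values above when outlier spots were kept, dim-input probes were left out, starts up to 1000 bp apart were joined or probes were summarised by the median. Normexp put 711 islands at 2 or more in Mdr2-/+ liver. Of the 1448 it put 70.9% at 2 or more in Mdr2-KO liver, with a median difference of 0.56 and 1 loss. Under it 0 were called higher and 0 lower by limma (157 and 1 at an unadjusted p under 0.05). A strongly methylated nearest island within 10 kb was found for 26.0%. Loess gave 14 higher, 4 lower, 74.0% at 2 or more in Mdr2-KO, 30.6% for the nearest island and a median difference of -0.0187. Quantile normalization gave 106 higher, 87 lower (208 and 289 at an unadjusted p under 0.05), 98.9% at 2 or more in Mdr2-KO and a median of -0.0622. It also made chr12:108766049-108766809 a loss. Division by SD gave 201 higher and 14 lower. With at least 5 probes there were 630 islands, 0 losses and 0 called lower (1 at an unadjusted p under 0.05), since both lost islands have 4 probes, and 31.3% for the nearest island. With starts at most 250 bp apart the latter was 45.0%. A fall of 0.5 counted 4 losses.

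Slide as a fixed block compared Mdr2-KO 1 with Mdr2-/+ 1 alone, with a median of -0.41, so its counts of calls are left out. Array weights gave 690 higher. The methods' t-test after Benjamini-Hochberg called 0 higher and 0 lower, and 95 and 2 at its own threshold before adjustment, where limma had 261 and 4. The authors' table gave 212 higher and 65 lower among 1194 islands. Leaving out 1 array gave 2 to 1016 higher (1016, 5 and 2 without Mdr2-/+ 1, 2 and 3, and 2, 3 and 25 without Mdr2-KO 1, 2 and 3), 1 to 2 lower, 99.2% to 99.7% at 2 or more in Mdr2-KO, 1354 to 1486 islands, a median difference of 0.02 to 0.53, and 2 losses each time. Members chosen without 1 Mdr2-/+ array differed from it by medians of -0.49 to 0.55. The cause of these shifts was not tested.

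The replicate numbers did not pair the samples, since the deviations of same-numbered arrays correlated at 0.11, -0.09 and 0.12. With the replicate block 53 islands were called higher and 2 lower, the median difference was 0.19 and the losses were the same count of 2. Spots near background limit the low end: input was well above background at 88.0% to 93.2% of these islands' probes.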
